A study of Cephalotaxus fortunei with 9 samples.

Results

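Leaf was compared with root in Cephalotaxus fortunei, an East Asian conifer of the plum yew group, across 37051 transcripts. The comparison takes 6 of the 9 libraries of the series: 3 of leaf and 3 of root. The remaining 3 libraries are of stem; they entered the low-count filter, the scaling and the estimate of the spread, and are quoted as levels for some transcripts. The series text describes network analysis of expression across root, leaf and stem to pick candidate sequences, in a study of enzymes that make cephalotaxine and homoerythrina alkaloids. All libraries came from frozen ground tissue by poly(A) selection and a strand-specific kit, per the labels' protocols. The labels give no genotype, treatment, plant age or collection time. Nor is it stated that the 3 libraries per tissue are of different plants, so p-values here reflect only the spread among these libraries, part of which may be technical.

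Leaves of conifers carry out photosynthesis, and their messenger RNA is usually rich in transcripts for light capture and carbon fixation. Roots take up water and minerals, anchor the plant and live in contact with soil organisms. Cephalotaxus is known for alkaloids of the cephalotaxine type, of which homoharringtonine is used against leukemia. The files identify transcripts by running number and length only. No gene name or sequence was paired with them, so the tissue labels were not checked against marker genes, and the transcripts below are described by level and by tissue profile, not by function.

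Root replicates 1 and 2 were nearly identical in reads, closer than independent counting noise alone would leave them. Whether they share reads was not tested. Their chi-square statistic per degree of freedom was 0.528, compared with 14.6 to 19.1 between leaf libraries and 28.9 to 29.5 where root replicate 3 was set against either of them. They were averaged and counted as 1 sample, called the averaged root sample below, which leaves 3 leaf and 2 root samples. Totals were 12809484 to 14606814 estimated reads in leaf libraries and 7117807 to 8093638 in root libraries. Root replicate 3 stood apart: 2606 transcripts had 0 reads there, against 8705 and 8747 in root replicates 1 and 2 and 11305 to 12022 in leaf libraries. Where it changes a result, both values are given.

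Large parts of the transcriptome differed between the tissues, and the differences had another form in each direction. Of 24564 transcripts tested, 10872 (44.3%) were called different, which means an adjusted p under 0.05 in edgeR's quasi-likelihood test together with at least a 2-fold difference in scaled reads. Leaf was higher for 4344 (17.7% of those tested) and root for 6528 (26.6%). Of the leaf-higher transcripts 47.8% lay between 2-fold and 4-fold and 26.1% between 4-fold and 8-fold, and the median log2 difference was 2.06. Root-higher transcripts spread far wider, with 23.2% between 2-fold and 4-fold, 26.7% between 32-fold and 256-fold, and a median log2 difference of 4.01. Folds above 256 were found for 45 leaf-higher transcripts and 629 root-higher transcripts. Where a tissue had 0 reads, a floor of 3 reads over that tissue was used, so these sizes are lower bounds. The floor was 0.0649 CPM (reads scaled to a common library total) in leaf and 0.165 CPM in root. The lower leaf floor lets the bounds of root-higher transcripts run larger.

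The long root tail consisted largely of transcripts with few or no leaf reads. Among leaf-higher transcripts, 199 had 0 reads in root, 514 had 1 to 9 reads summed over the 2 root samples, and 3631 had 10 or more. Among root-higher transcripts, 2216 had 0 reads in leaf, 972 had 1 to 9 reads summed over the leaf libraries and 3340 had 10 or more. Among calls with 10 or more reads in the lower tissue the medians of the directions were closer. That limit by itself removes the largest folds. It left 3631 of 4344 leaf-higher calls but 3340 of 6528 root-higher calls, so the closer medians follow in part from the limit. The median log2 difference was then 1.88 for leaf-higher and 2.15 for root-higher calls, and 3.39% and 8.02% reached 32-fold. In root-higher transcripts the share at 0 leaf reads was 0.264% between log2 1 and 2, 46.0% between log2 4 and 5, and 76.6% above log2 8. Leaf was the more deeply sequenced tissue, so few reads in leaf is a lower level than few reads in root.

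**Figure D1:**
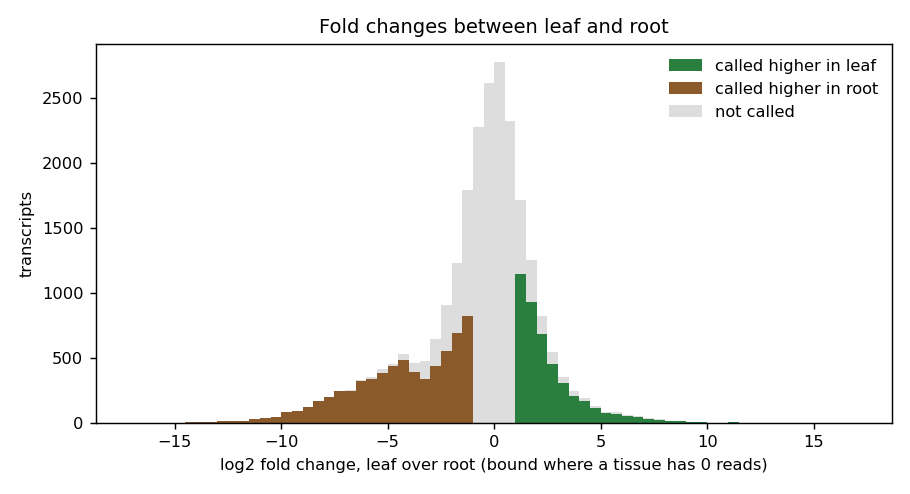
Number of transcripts by log2 fold change of leaf over root, in steps of 0.5, with called transcripts coloured by direction and transcripts not called in grey. Leaf-higher calls (4344) pile up near the 2-fold limit, whereas root-higher calls (6528) extend in a long tail with a second rise at log2 4 to 5, where 46.0% of root-higher calls have 0 leaf reads. For transcripts with 0 leaf reads the fold is the root level over the floor. Where they pile up therefore depends on the floor and on the low-count filter.

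The number of root-higher calls rested on having both root samples, and the long root tail was present with either. With the averaged root sample as the only root sample, 4619 transcripts were called higher in leaf and 4696 higher in root (37.1% of 25103 tested). When root replicate 3 stood alone for root, 4463 were called higher in leaf and 4845 higher in root (35.0% of 26625 tested). Both fits borrow the spread of leaf and stem for the single root sample. The median log2 difference of leaf-higher calls was 2.24 with the averaged root sample and 2.10 with root replicate 3, and that of root-higher calls was 4.23 and 4.70. Against the averaged root sample, 443 leaf-higher and 2080 root-higher calls reached 32-fold. Against root replicate 3, 341 leaf-higher and 2307 root-higher calls did.

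Most calls held in size in both root samples. A call was said to hold when each root sample lay at least 2-fold from the leaf mean in the called direction, in CPM scaled by TMM (edgeR's trimmed-mean scaling). This was so for 3905 leaf-higher transcripts (89.9%) and 6148 root-higher transcripts (94.2%). Together these calls were 40.9% of all transcripts tested, and uncalled transcripts were not put to this rule. The calls were made on the same samples, so these shares describe the list and give no independent evidence. A difference of at least 4-fold in each root sample was found for 1874 leaf-higher and 4709 root-higher transcripts. All 3 leaf libraries lay on one side of both root samples for 10834 of the 10872 calls, against 73.2% of all transcripts tested. A separate call in each single-root fit was a stricter demand: 3472 leaf-higher transcripts (79.9%) and 3741 root-higher transcripts (57.3%) met it. No called transcript was called the opposite way in a single-root fit. Over the 24663 transcripts tested in both single-root fits, 24 were called in opposite directions, 15 of them higher in leaf against the averaged root sample and higher in root against root replicate 3, and 9 the other way round. None of the 24 was among the 500 most abundant transcripts of any sample.

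The distance between the tissues exceeded that between samples of a tissue. Over 20089 transcripts with a mean of at least 1 scaled CPM, the median absolute log2 ratio was 1.21 to 1.33 between a leaf library and a root sample. It was 0.202 to 0.220 between leaf libraries and 0.386 between the 2 root samples. A difference of 2-fold or more separated 56.7% to 59.6% of transcripts between leaf and root, 11.3% to 12.3% between leaf libraries and 17.1% between the root samples. These shares count transcripts of the same few libraries and carry no test.

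A minority of transcripts appeared in one root sample and not in the other. Root replicate 3 had at least 10 reads for 1171 transcripts that were at 0 in root replicate 1, and root replicate 1 had at least 10 reads for 348 that were at 0 in root replicate 3. Between leaf libraries the corresponding numbers were 433 to 479 in either direction. Salmon divides reads among similar transcripts, so a transcript at 0 may have a near-identical copy that holds its reads. These transcripts form the clouds away from the diagonal in the plot of fold changes against each root sample.

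**Figure D2:**
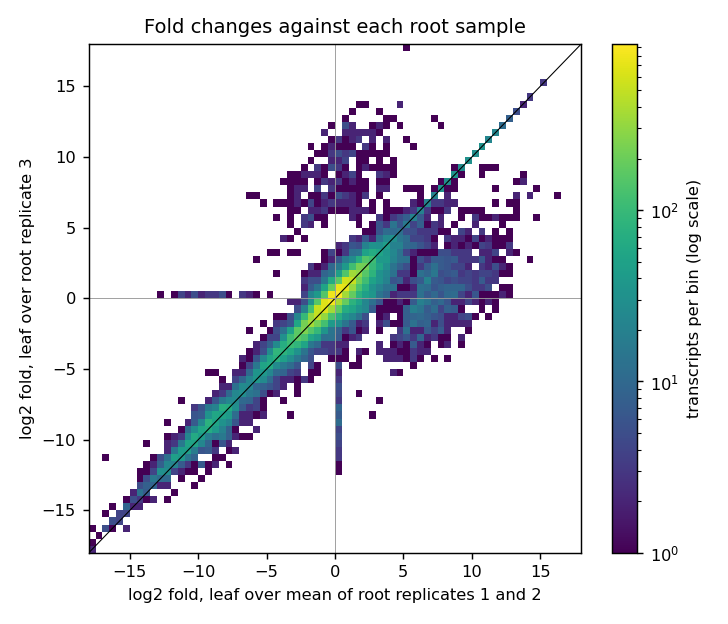
Log2 fold change of leaf over the averaged root sample (horizontal) and of leaf over root replicate 3 (vertical), as fitted, with colour for the number of transcripts per bin on a log scale. Most transcripts follow the diagonal; clouds off it hold transcripts with reads in 1 root sample only, and the narrow bars at 0 hold transcripts without reads in leaf and in that root sample.

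Transcripts present in one tissue and unread in the other were counted with a fixed rule of at least 10 reads in each library of one tissue and 0 in each library of the other. Leaf had 199 such transcripts with a median of 9.48 TPM (a level scaled by length and by library total), and root had 1850 with a median of 7.58 TPM. The leaf set held 0.273% to 0.307% of leaf TPM, and 0 of its members reached 1000 TPM. The root set held 14.5% of TPM in the averaged root sample and 12.4% in root replicate 3, and 23 of its members stood at 1000 TPM or more. In stem the root set held 0.207% to 0.214% of TPM, and 1332 of its 1850 members had 0 reads there as well. These counts were on unequal terms, because root libraries were shallower and root replicate 3 left few transcripts at 0. With root replicates 1 and 2 alone as root, the numbers were 678 in leaf and 2100 in root, and with root replicate 3 alone they were 354 in leaf and 2618 in root.

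The split of the calls by direction varied with abundance. Among transcripts whose higher tissue averaged 1 to 10 TPM, 38.9% were called and 17.3% of those calls were higher in leaf. At 10 to 100 TPM 47.7% were called, with 2794 higher in leaf and 2508 higher in root. At 100 to 1000 TPM 59.2% were called, with 778 higher in leaf and 488 higher in root. The 172 transcripts at 1000 TPM or more had the largest called share among these classes, 73.3%, and were evenly divided with 65 higher in leaf and 61 higher in root. In that class the median log2 difference was 3.31 for leaf-higher calls and 9.32 for root-higher calls.

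The split also varied with transcript length, and for short transcripts it depended on how length entered the measurement. Of 2226 tested transcripts of up to 300 bases, 30.6% were called from reads alone, against 44.3% of all transcripts tested. In that class 426 were called higher in leaf and 256 higher in root. For that class the effective length, the number of positions at which Salmon lets a fragment start, was larger in leaf than in root by a median log2 ratio of 1.14. With effective lengths as offsets, 201 were called higher in leaf and 714 higher in root, so the majority turned round. In the class of 301 to 500 bases the calls were 605 higher in leaf and 794 higher in root from reads, and 502 and 1036 with the offsets. Above 500 bases the median log2 ratio of effective lengths was 0.14 or less. There the share of calls that remained in the same direction was 93.3% to 96.0% by length class, compared with 67.0% for transcripts of up to 300 bases. No call of the reads fit became a call in the opposite direction. Restricted to transcripts over 500 bases, the test gave 3272 calls higher in leaf and 5294 higher in root.

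**Figure D3:**
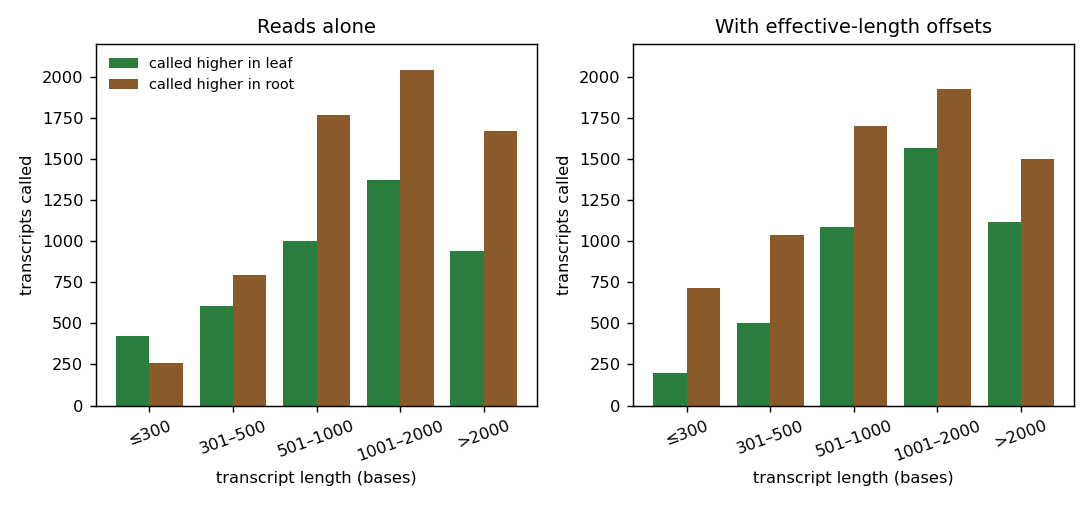
Number of transcripts called higher in leaf and higher in root in 5 classes of transcript length, from reads alone (left) and with per-library effective lengths as offsets (right). In the shortest class leaf-higher calls outnumber root-higher calls on the left (426 and 256) and are fewer on the right (201 and 714); above 500 bases root-higher calls are more numerous in both panels.

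The most abundant transcripts of leaf were few-hundred-base transcripts, and 4 of the first 5 stood far lower in root replicate 3 than in the averaged root sample. Transcript transcripts_2235 (406 bases) was first in each leaf library, at 47610, 50702 and 43649 TPM, against 15346 TPM in the averaged root sample and 95014 TPM in root replicate 3. The leaf values lay between the root values, and the fitted log2 difference was 0.19 ± 0.61 (SE; adjusted p = 0.815, edgeR). Against the averaged root sample alone it was 2.06, and against root replicate 3 alone it was -0.49, so its direction turned with the root sample.

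Second in leaf was transcripts_26271 (386 bases), with 27150, 25587 and 29258 TPM in leaf, against 2094 TPM in the averaged root sample and 51.9 TPM in root replicate 3. Transcripts_13675 (417 bases) stood at 14545, 12029 and 16522 TPM in leaf, against 964 and 36.6 TPM in those root samples. For transcripts_8441 (512 bases) the leaf values were 11897, 12362 and 11567 TPM, against 1839 and 40.6 TPM in root. Each of these was higher in every leaf library than in any root library. For transcripts_30852 (776 bases) they were 12170, 12069 and 11024 TPM, against 1346 and 38.4 TPM in root, again with no overlap.

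All 4 were called higher in leaf, with log2 differences of 4.90 ± 1.31, 4.88 ± 1.18, 3.99 ± 1.30 and 4.11 ± 1.25 (SE; adjusted p = 0.0178, 0.0117, 0.0364 and 0.0286, edgeR). The averaged root sample stood above root replicate 3 by 40.4-fold, 26.4-fold, 45.3-fold and 35.0-fold. The averaged root sample held 6.71% to 15.4% of the leaf level of these transcripts, and root replicate 3 held 0.190% to 0.340%. The last 2 missed the threshold in some alternatives: with leaf and root samples only in the fit, adjusted p = 0.0824 for transcripts_8441 and 0.0690 for transcripts_30852 (edgeR). Without a low-count filter it was 0.0750 and 0.0612. With a leaf library left out, transcripts_8441 had adjusted p = 0.0601 to 0.0653 in all 3 cases, and transcripts_30852 had 0.0536 without leaf replicate 1 and 0.0534 without leaf replicate 2. In stem, transcripts_26271, transcripts_8441 and transcripts_30852 averaged 28036, 9772 and 12281 TPM, near their leaf levels, and transcripts_13675 averaged 538 TPM.

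Such a gap was rare among the other abundant leaf transcripts. Of the 100 highest in leaf, 78 differed less than 2-fold in TPM between the root samples, 5 were at least 8-fold higher in the averaged root sample and 2 at least 8-fold higher in root replicate 3. Besides the 4 above, the 5 included transcripts_36799 (1261 bases), with 1948 ± 207 TPM in leaf (SD, n = 3), 46.2 TPM in the averaged root sample and 0 in root replicate 3. It was singled out after its values were seen, as were these limits. Of 13414 tested transcripts at 10 TPM or more in either tissue, 84.4% differed less than 2-fold between the root samples. At least 8-fold higher were 110 of these in the averaged root sample and 320 in root replicate 3. The leaf list thus had a larger share higher in the averaged root sample.

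The 5 highest transcripts of root were short as well, and 2 of them had 0 leaf reads. By mean TPM transcripts_2235 came first in root, followed by transcripts_15801 (261 bases). That order rested on root replicate 3, where they ranked 1 and 3. In the averaged root sample transcripts_2235 ranked 3 and transcripts_15801 ranked 1. Transcripts_15801 had 0 reads in each leaf library, against 26357 TPM in the averaged root sample and 16989 TPM in root replicate 3. By reads it was at least 14627-fold lower in leaf (adjusted p = 2.87e-05, edgeR). Transcripts_34646 (246 bases) likewise had 0 reads in each leaf library, against 10297 and 23221 TPM in the root samples, and was at least 9334-fold lower in leaf (adjusted p = 1.04e-04, edgeR). In stem these 2 averaged 0.301 and 0.330 TPM, so they were close to unread in stem too.

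For transcripts_1197 (251 bases) TPM and reads gave opposite directions. Leaf stood at 10632, 11465 and 9544 TPM, below 15483 and 14920 TPM in the root samples. By reads leaf was higher, with a log2 difference of 0.86 ± 0.08 (SE; adjusted p = 1.44e-04, edgeR), short of the 2-fold limit. With effective-length offsets the log2 difference was -0.59 (adjusted p = 0.00319, edgeR). Transcripts_21996 (288 bases) completed the first 5, with 304, 406 and 445 TPM in leaf, against 6296 and 9647 TPM in root. Its log2 difference was -3.37 ± 0.23 (SE; adjusted p = 3.19e-05, edgeR), and it averaged 19.4 TPM in stem.

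The sharpest measured contrasts were taken from called transcripts with at least 10 reads in each of the 6 libraries and at least 100 TPM in the higher tissue, ordered by the smallest TPM ratio between any leaf and any root library. There were 752 such transcripts higher in leaf and 356 higher in root. In the leaf direction, transcripts_29460 (551 bases) led with 8311, 7919 and 7477 TPM in leaf, against 4.55 TPM in the averaged root sample and 14.4 TPM in root replicate 3. The smallest ratio was 520, and the log2 difference was 9.77 ± 0.49 (SE; adjusted p = 9.33e-06, edgeR). Its stem level was 2917 ± 158 TPM (SD, n = 3).

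Transcripts_23951 (1481 bases) followed with 2111, 2419 and 2455 TPM in leaf, against 3.76 and 4.90 TPM in root. It had the closest root samples of the 6 leaf-higher transcripts and a log2 difference of 9.11 ± 0.22 (SE; adjusted p = 9.30e-07, edgeR). Transcripts_18510 (933 bases) had 1965, 1942 and 1778 TPM in leaf, against 1.32 and 4.76 TPM in root. Transcripts_21132 (829 bases) had 1679, 1662 and 1554 TPM in leaf, against 4.36 and 6.20 TPM in root. The root samples of transcripts_18510 thus differed among themselves more than its leaf libraries did.

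Transcripts_10546 (890 bases) had 1236, 1275 and 1257 TPM in leaf, against 3.25 and 6.17 TPM in root. Transcripts_31927 (897 bases) had 2529, 2615 and 2972 TPM in leaf, against 12.6 and 6.65 TPM in root. It was the only one of the 6 with the lower root value in replicate 3. The last 4 had log2 differences of 9.26 ± 0.51, 8.27 ± 0.33, 8.04 ± 0.30 and 7.91 ± 0.26 (SE; adjusted p = 1.43e-05, 3.21e-06, 2.50e-06 and 1.48e-06, edgeR). Stem levels ranged from 35.3 TPM for transcripts_21132 to 601 TPM for transcripts_10546.

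In the root direction the leading transcript was transcripts_10944 (480 bases), with 1.59, 1.29 and 1.87 TPM in leaf, against 984 TPM in the averaged root sample and 1063 TPM in root replicate 3. Its smallest ratio was 524 and its log2 difference was -9.10 ± 0.18 (SE; adjusted p = 5.76e-07, edgeR). Transcripts_20161 (713 bases) had 3.07, 2.10 and 4.34 TPM in leaf, against 1895 and 1430 TPM in root. It was lower still in stem, at 0.422 TPM.

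Transcripts_5951 (475 bases) had 5.65, 5.10 and 1.91 TPM in leaf, against 2288 and 1709 TPM in root. Transcripts_20751 (2654 bases), the longest of the 6, had 0.293, 0.396 and 0.338 TPM in leaf, against 149 and 104 TPM in root. Transcripts_25202 (1722 bases) had 1.32, 1.32 and 1.39 TPM in leaf, against 319 and 385 TPM in root. The leaf and root values of these 3 lay more than 100-fold apart.

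Transcripts_33550 (1367 bases) had 2.22, 1.39 and 2.34 TPM in leaf, against 605 and 440 TPM in root. In stem it averaged 221 ± 18.2 TPM (SD, n = 3), between its leaf and root levels, whereas the other 5 averaged at most 5.85 TPM in stem. The log2 differences of the last 5 ran from -9.33 ± 0.26 for transcripts_20161 to -8.08 ± 0.19 for transcripts_25202 (SE; adjusted p = 1.18e-06 and 9.30e-07, edgeR).

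**Figure D4:**
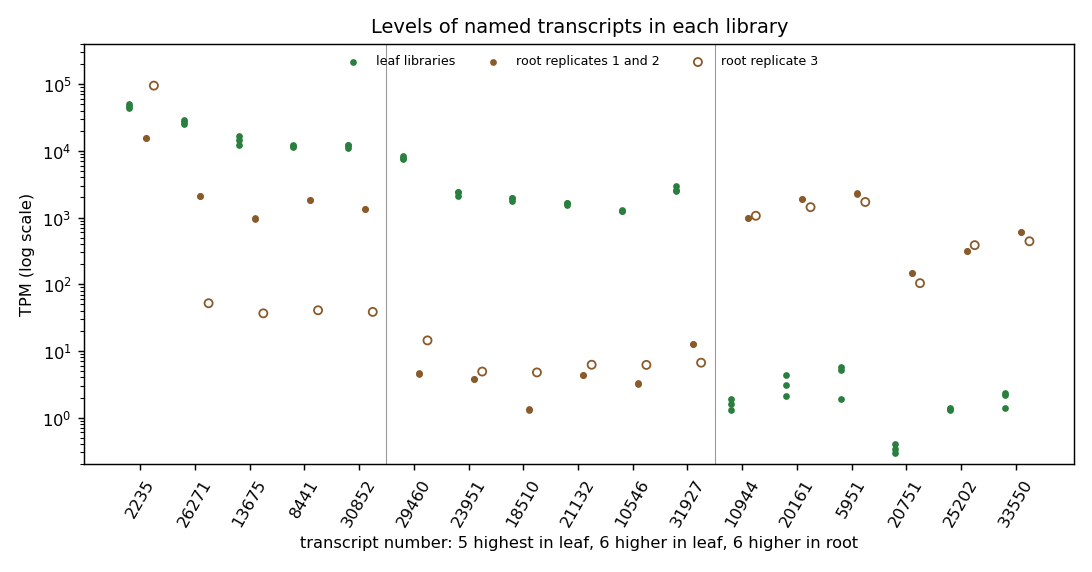
TPM on a log scale in each leaf library (green), in root replicates 1 and 2 (filled brown) and in root replicate 3 (open brown), for the 5 transcripts highest in leaf, 6 called higher in leaf and 6 called higher in root. Root replicate 3 lies far below root replicates 1 and 2 for 4 of the 5 transcripts highest in leaf and above them for transcripts_2235, while in the 6 root-higher transcripts the root samples lie close to each other and far above leaf.

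The abundant transcripts of the tissues overlapped in part. Of the 100 highest in leaf and the 100 highest in root by mean TPM, 28 were shared. Pairs of a leaf library and a root sample shared 28 to 34 of their first 100, pairs of leaf libraries 89 to 91, and the 2 root samples 81. Of the first 10, leaf and root shared 2, and of the first 1000 they shared 484. Ranked by reads without the length term, 41 of 100 were shared. The leaf list had a median length of 742 bases with 32 transcripts of up to 500 bases, and the root list had a median of 383 bases with 64. Both lists were ranked by TPM, which divides by effective length, and for short transcripts that length was smaller in root.

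Among the 100 highest of leaf, 63 were called higher in leaf and 0 higher in root, against 17.7% and 26.6% of all transcripts tested. Among the 100 highest of root, 63 were called higher in root and 4 higher in leaf. Being chosen by level in these samples, the lists give no independent evidence of direction. The 4 were transcripts_4120, transcripts_26224, transcripts_4892 and transcripts_26271. For transcripts_4120 (228 bases) and transcripts_4892 (353 bases) the call was lost with effective-length offsets (adjusted p = 0.222 and 0.440, edgeR).

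Members of each list were spread widely in the other tissue. Of the leaf list 72 were among the first 1000 of root, and of the root list 51 were among the first 1000 of leaf. The leaf list had a median rank of 50.5 to 51.5 in leaf libraries and of 231 and 230 in the averaged root sample and root replicate 3. The root list had a median rank of 769.5 to 1001 in leaf libraries and of 51.5 in each root sample. Of the leaf list 0 were at 0 reads in every root library, and of the root list 23 were at 0 reads in every leaf library. The leaf list held 30.2% to 31.0% of leaf TPM, 10.5% of TPM in the averaged root sample and 18.3% in root replicate 3. In that replicate transcripts_2235 alone was at 95014 TPM. The root list held 15.0% to 16.0% of leaf TPM, and 27.9% and 33.6% of TPM in the root samples.

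Over the 790 transcripts among the 500 highest of leaf or of root, the median absolute shift in TPM rank was 825 to 851 places between a leaf library and a root sample. It was 35.5 to 45.5 places between leaf libraries and 81 between the root samples. A shift of over 1000 places was found for 46.5% to 47.3% of these transcripts between leaf and root, for 6.96% to 7.59% between leaf libraries and for 11.8% between the root samples. Across these transcripts Spearman's rho was -0.24 to -0.21 between leaf and root, a description of a list chosen for being high in either tissue.

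The largest shifts toward leaf among transcripts in the first 100 of every leaf library began with transcripts_23293 (1245 bases). It had 1923, 2088 and 2040 TPM in leaf, against 0.647 TPM in the averaged root sample and 2.56 TPM in root replicate 3. Its rank was 29 to 36 in leaf libraries, against 26911 and 26844 in the root samples. The log2 difference was 10.12 ± 0.52 (SE; adjusted p = 1.04e-05, edgeR).

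Next came transcripts_2092 (1160 bases), ranked 75 to 86 in leaf, against 28387 and 25962 in root. With 1 read in each of root replicates 1 and 2 and 39 in root replicate 3, its root samples differed widely from each other but lay far below leaf. Transcripts_18510, described above, and transcripts_17632 (320 bases) completed the group. Transcripts_17632 had 1213, 1217 and 1006 TPM in leaf, against 1.24 and 5.01 TPM in root, and averaged 0.144 TPM in stem. Its root levels rest on 1, 1 and 4 reads in root replicates 1, 2 and 3, so its root ranks are uncertain. The log2 difference was 9.69 by reads and 8.43 with effective-length offsets.

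The largest shifts toward root were those of transcripts_15801 and transcripts_34646, described above, and of transcripts_16221 and transcripts_5027. Transcripts_16221 (267 bases) had 0 reads in each leaf library, against 6386 and 5509 TPM in root, and ranked seventh in each root sample. It was at least 4706-fold lower in leaf (adjusted p = 7.19e-06, edgeR). Transcripts_5027 (286 bases) had 0 reads in each leaf and stem library, against 6707 and 5369 TPM in root, and was at least 5465-fold lower in leaf (adjusted p = 1.01e-04, edgeR). All 4 belong to the class of up to 300 bases, in which effective lengths differed most between the tissues.

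**Figure D5:**
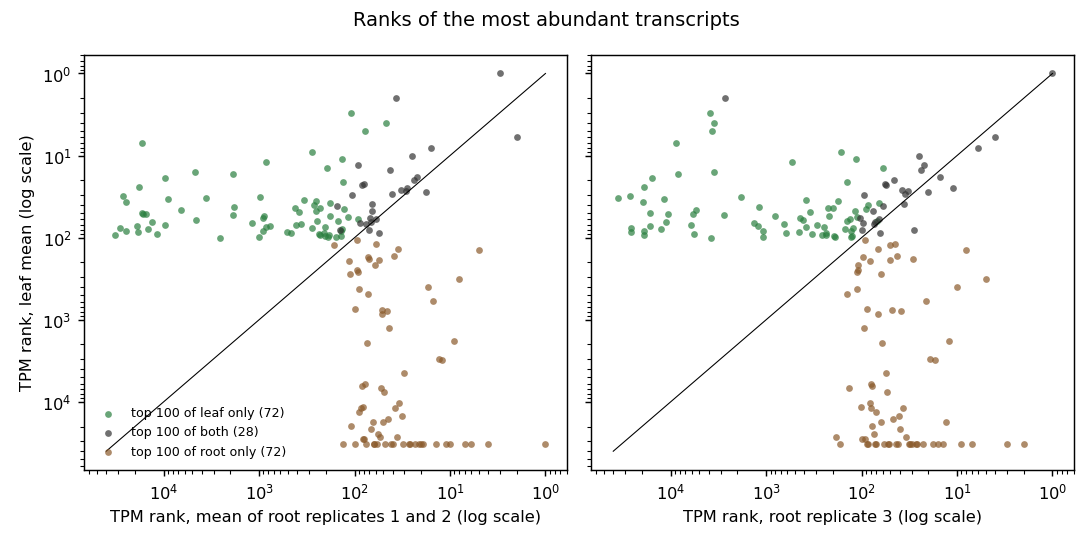
TPM rank in leaf (mean of 3 libraries, vertical, rank 1 at the top) against TPM rank in the averaged root sample (left) and in root replicate 3 (right), log scales, for the 172 transcripts among the 100 highest of leaf or of root. The 28 shared transcripts lie mostly near the diagonal, members of the leaf list alone spread far to the left, and 23 members of the root list lie in a row at the bottom, where leaf has 0 reads.

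Among transcripts abundant in both tissues, a few differed little. Of 23 transcripts in the first 100 of each of the 6 libraries, 3 were called higher in leaf and 0 higher in root. Among all transcripts tested the shares were 17.7% and 26.6%. The set was chosen for high rank in both tissues, which by itself leaves little room for large differences. The smallest differences by reads were those of transcripts_5708, transcripts_36115, transcripts_15047 and transcripts_27361. Transcripts_5708 (1593 bases) had 1549, 1610 and 1765 TPM in leaf, against 1473 and 1080 TPM in root, with a log2 difference of 0.01 and a 95% interval of -0.23 to 0.25. By TPM each leaf library stood above each root library. With effective-length offsets the log2 difference of transcripts_5708 was 0.30 (adjusted p = 0.0501, edgeR), outside that interval. Transcripts_36115 (578 bases) had 1208, 1393 and 1367 TPM in leaf, against 1358 and 1088 TPM in root, with a log2 difference of 0.03 (95% interval -0.19 to 0.24).

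Transcripts_15047 (1373 bases) had 1730, 1900 and 1875 TPM in leaf, against 1458 and 1839 TPM in root, with a log2 difference of -0.07 (95% interval -0.39 to 0.26). Leaf and root values overlapped for transcripts_36115 and transcripts_15047. Transcripts_27361 (227 bases) had a log2 difference of 0.09 (95% interval -0.10 to 0.28) by reads but lower TPM in leaf, at 2302, 2324 and 2095, against 3469 and 3002 in root. With effective-length offsets its log2 difference was -0.59 (adjusted p = 0.00120, edgeR). The stem levels of transcripts_5708, transcripts_36115 and transcripts_15047 were 2122, 2281 and 3884 TPM, above both tissues.

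The weight of the calls in each tissue was uneven. Transcripts called higher in leaf made up 48.4% ± 0.0949 of TPM in the 3 leaf libraries and 9.54% ± 0.903 in the 2 root samples (SD). Transcripts called higher in root made up 4.10% ± 0.101 in leaf and 39.8% ± 4.70 in root. Tested transcripts that were not called made up 46.6% ± 0.0943 in leaf and 46.6% ± 2.81 in root. These shares describe lists chosen on the same samples.

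No difference between the tissues in how far TPM is concentrated in few transcripts passed a test. Of all TPM, 50% was held by 505, 520 and 557 transcripts in leaf libraries, against 621 in the averaged root sample and 508 in root replicate 3 (two-sided exact permutation test, p = 0.60). The leaf values 520 and 557 lay between the root values, and 505 lay just below the lower of them. Counting to 75% of TPM took 2541, 2576 and 2700 transcripts in leaf, against 3144 and 3531 in root (exact permutation p = 0.10). Transcripts of up to 500 bases held 34.7% ± 1.14 of leaf TPM (SD, n = 3), against 45.0% in the averaged root sample and 55.7% in root replicate 3 (exact permutation p = 0.10). TPM divides by effective length, which was larger in leaf at these lengths. The median log2 ratio of leaf over root was 1.14 up to 300 bases and 0.487 for 301 to 500 bases. For equal reads this gives short transcripts more TPM in root, and its part in these shares was not tested. With 3 against 2 samples, 0.10 is the smallest p these tests allow, so none can pass 0.05.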

How the data were processed

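RNA of leaf and root of Cephalotaxus fortunei was analysed from Salmon tables, 1 per library. The authors' tools were fastp 0.23.2 and Salmon 1.10.0, per the submitters' processing notes. Which transcript set Salmon searched, and how it was run, is not stated in those notes. The deposited estimated counts of reads are unscaled, and the deposited TPM values are scaled by effective length to 1000000 per library, per the file headers. In 39.6% to 50.3% of transcripts the estimated counts differed from whole numbers by more than 0.001. Estimated counts were rounded. Root replicates 1 and 2 were averaged. edgeR 4.0.16 in R 4.3.3 filtered by expression within tissues, scaled by TMM and fitted a robust quasi-likelihood model with 1 mean per tissue to 8 samples, stem included. A call needed a Benjamini-Hochberg adjusted p under 0.05 over all transcripts tested and an absolute log2 difference of 1 or more. Standard errors were back-calculated as the absolute log2 difference divided by the square root of the test's F statistic. The 95% intervals were built from these standard errors and are approximate. Floors cover counting error only. The model was also run on simulated counts with the same spread per transcript in all tissues. Those counts did not set root replicate 3 apart, so that run is no check on the gap between the root samples.

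Alternatives used DESeq2 1.42.0, limma 3.58.1 (on voom-weighted counts and on log2 TPM after adding 1 or 0.1), further scalings and filters, and each root sample alone. Named transcripts followed a rule: the 5 highest per tissue, the 6 sharpest measured contrasts per direction, the 4 largest rank shifts per direction, the 4 most even among transcripts in the first 100 of every library, and up to 4 with opposite calls in the single-root fits, of which none was abundant enough. Transcripts_36799, transcripts_4120, transcripts_26224 and transcripts_4892 were named after their values were seen. The comparison, its members and rules were chosen with earlier results of these data known.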

Additional observations from a re-analysis of the deposited data

How the results depend on the processing

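Calls numbered 8566 to 12181 over the alternatives that kept the call rule, and 8154 to 10818 calls were shared with the reported 10872 in the same direction. An adjusted p alone called 13120, and a threshold test against a fold of 1.5 called 10302. The share of calls higher in leaf, 40.0% as reported, was 35.9% with DESeq2 size factors in edgeR, 36.9% with library totals, 38.0% with upper-quartile scaling, 36.5% with DESeq2's Wald test, 41.6% with limma on log2(TPM + 0.1), 43.8% without a filter, 41.8% with a filter of 1 CPM in 2 samples, 38.2% over 500 bases, 38.6% with leaf and root samples only, 43.1% by adjusted p alone, 49.6% with the averaged root sample alone and 47.9% with root replicate 3 alone. Leaving out each library gave 9315 to 10863 calls, of which 40.0% to 49.6% were higher in leaf (4017 to 4619 transcripts higher in leaf and 4696 to 6511 higher in root, the lowest root count without root replicate 3). Calls holding in both root samples numbered 10053, and 6583 at 4-fold by construction. The overlap of 28% of the top 100 was 42.0% in the top 500, 48.4% in the top 1000, 41.0% by reads, and 27.0% to 29.0% with a leaf library left out. The median rank shift, 839 places on average over pairs of leaf and root samples, was 686 for the top 100, 1187 for the top 1000, 873 with the averaged root sample alone, 854 with root replicate 3 alone and 523 over 500 bases. Transcripts with reads in leaf and 0 in root were 678 with root replicates 1 and 2 alone and 354 with root replicate 3 alone, an alternative chosen after seeing the data. The number of transcripts that hold 50% of TPM was lower in leaf by 26 to 52 with a leaf library left out, and that for 25% was higher in leaf by 2 (exact permutation p = 0.80); the cause was not tested.

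Of 24 called transcripts named by rule, 22 stayed called in the same direction in each alternative run. The others, transcripts_8441 and transcripts_30852, kept their direction but missed the threshold in 5 and 4 alternatives. The uncalled ones changed sign as follows (log2, leaf over root; the cause was not tested). With effective-length offsets, transcripts_1197 was at -0.59, transcripts_27361 at -0.59, transcripts_2235 at -0.34 and transcripts_15047 at 0.077. Under limma on log2(TPM + 1) and log2(TPM + 0.1), transcripts_1197 was at -0.53 in both, transcripts_27361 at -0.53 in both and transcripts_15047 at 0.16 in both. DESeq2 size factors in edgeR and DESeq2's test gave -0.029 and -0.029 for transcripts_27361, -0.096 and -0.096 for transcripts_36115 and -0.11 and -0.11 for transcripts_5708. Library totals gave -0.061 for transcripts_36115 and -0.077 for transcripts_5708, and upper-quartile scaling -0.028 and -0.044. With the averaged root sample alone, transcripts_15047 was at 0.25, transcripts_36115 at -0.0056 and transcripts_5708 at -0.067, and with root replicate 3 alone transcripts_2235 was at -0.49. Without leaf replicate 2, transcripts_36115 was at -0.0080 and transcripts_5708 at -0.012; with other libraries left out they reached 0.081 and 0.049. With leaf and root samples only transcripts_5708 was at -0.013. Without a filter transcripts_15047 was at 0.070.

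The 9 libraries as deposited gave 11910 calls without a replicate block and 11215 with the replicate block, where transcripts_15047 was at 0.017 and 0.030 and transcripts_5708 at -0.030 and -0.027. Same-numbered leaf and root libraries deviated together at correlations of -0.00078, 0.024 and 0.0080, so the numbers were not taken to pair them; leaf replicates 2 and 3 correlated best with the root library of their own number, and leaf replicate 1 with root replicate 3. Depth limits the count of transcripts at 0 reads, which is a lower level in leaf than in root.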
